A study of Mus musculus with 14 samples.

Results

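The genes described here are 9 surface proteins by which mouse haematopoietic stem cells are sorted or receive signals, Slamf1, Cd48, Kit, Ly6a, Procr, Flt3, Cd34, Esam and Tek, out of 25832 gene identifiers in the single-cell count tables of this series. They were taken by name, without use of their values, and all 9 were found. The study profiled haematopoietic stem cells of mouse bone marrow from floxed controls and from animals lacking Phf19, a partner protein of the Polycomb complex that methylates lysine 27 of histone H3. Of its 14 samples, the 4 plates of MARS-Seq were used, a method that sorts single cells into wells and counts transcripts near their 3′ end. The labels give every plate the surface phenotype CD150-positive and CD48-negative, and the transcripts of the markers are compared here between plates and between genotypes.

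Every plate, named 350W, 351W, 352W and 353W, held 96 wells of cells named WT and 96 wells of cells named KO. All cells were primary bone marrow cells depleted of lineage-positive cells. The labels give all 4 plates the same sort, and whether they were gated alike was not tested, which bears on every comparison between plates. The KO name stands for PHF19 KO mice, per the series' design text, and whether WT cells came from the floxed controls is not stated there. The Cre driver, the age, sex and strain of the animals, and their number per plate are not given in the labels or the design text. Within a plate WT cells filled wells 1 to 96 and KO cells wells 97 to 192, so genotype and the range of wells cannot be told apart.

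Long-lived stem cells carry CD150, the product of Slamf1, and lack CD48, which appears on multipotent and committed progenitors. CD150 and CD48 both belong to the SLAM family of immune cell adhesion receptors. Kit, Flt3 and Tek encode receptor tyrosine kinases for stem cell factor, Flt3 ligand and the angiopoietins, and Flt3 is gained as stem cells give rise to lymphoid-primed progenitors. Ly6a encodes Sca-1, Procr the endothelial protein C receptor and Esam an endothelial adhesion molecule, each used to enrich stem cells, while the sialomucin CD34 is low on adult mouse stem cells and higher on progenitors.

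A cell was kept when it had at least 500 counts, which left 716 of 768 wells. The 52 wells below that minimum were 3 WT and 49 KO wells. The 8 pools of kept cells, each of a plate and a genotype, held 220821 to 510791 counts, and the median per cell was 2230 to 5006 counts. No cell name was shared between plates. In KO cells the median was 0.725 to 0.896 of that in WT cells of the same plate. Phf19 itself had 6 counts in all WT cells and 3 in all KO cells, too few to check the labels, and reads near the 3′ end may come from outside the deletion. Levels are CPM, the counts of a gene per 1000000 counts of its pool. They were not divided by transcript length, so they are compared between pools and not between genes.

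Slamf1 (ENSMUSG00000015316), the positive sort marker, was hardly detected as a transcript. It had 27 counts in 15 of the 716 cells. In WT cells of 350W, 351W, 352W and 353W its level was 12.8, 40.6, 0 and 0 CPM, from 4, 16, 0 and 0 counts. In KO cells of the same plates it was 4.51, 16.0, 4.53 and 0 CPM, from 1, 5, 1 and 0 counts. Plate 351W was highest in both genotypes, and 1 WT well of it held 6 of the 21 counts. Plate 353W, the most deeply counted, had none in 175 cells, which allows a share of up to 2.09% of cells with a count (exact 95% interval). With both genotypes summed, the level in 351W was 3.17 times that in 350W (exact 95% interval 1.16 to 10.8), 16.0 times that in 352W (2.57 to 662, from 1 count there) and at least 8.85-fold higher than in 353W, taking 3 counts over the plate as the floor. These intervals, like the other exact intervals here, cover counting error only, for which the numbers of counts in a pool set the limit.

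Cd48 (ENSMUSG00000015355), the negative sort marker, split the plates. In WT cells of 350W, 351W, 352W and 353W it stood at 0, 0, 195 and 47.0 CPM, from 0, 0, 62 and 24 counts. In KO cells it stood at 4.51, 0, 222 and 28.8 CPM, from 1, 0, 49 and 11 counts. In both genotypes 352W was highest and 353W second, and the pools of 352W and 353W did not overlap with those of 350W and 351W. A count of Cd48 was found in 38.5% of 169 cells of 352W (95% interval 31.1% to 46.2%) and in 10.3% of 175 cells of 353W (6.21% to 15.8%). Plate 350W had it in 1 of 187 cells, and 351W in 0 of 185 cells, which allows a share of up to 1.97% (exact 95% interval). The cells of all plates carry the label CD48-negative, which describes the protein at the cell surface, while these are transcripts. The counts were spread over wells, with at most 6 in a cell.

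Depth did not order these shares. Plate 350W had a median of 3077 counts per WT cell and 2230 per KO cell, and 352W had 2920 and 2552.5. After each cell was thinned to 1500 counts, a step that left 683 cells and dropped 33 shallower ones, Cd48 was found in 24.1% of cells of 352W, 5.33% in 353W, 0.562% in 350W and 0% in 351W.

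The starts of Slamf1 and Cd48 both lie on chromosome 1, in the cluster of SLAM family genes. The 250 bases before each start are shown because these genes define the sort, and are given for the strand of the gene with CG dinucleotides, the sites of DNA methylation, in capitals. They come from RefSeq on GRCm38.p6, at chr1:171766882-171767131 (plus strand) for Slamf1 and chr1:171681742-171681991 (plus strand) for Cd48.
Slamf1: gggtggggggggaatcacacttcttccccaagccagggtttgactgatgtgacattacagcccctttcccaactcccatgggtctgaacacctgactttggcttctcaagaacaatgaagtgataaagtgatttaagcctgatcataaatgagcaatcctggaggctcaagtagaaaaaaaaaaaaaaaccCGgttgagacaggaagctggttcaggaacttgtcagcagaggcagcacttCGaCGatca
Cd48: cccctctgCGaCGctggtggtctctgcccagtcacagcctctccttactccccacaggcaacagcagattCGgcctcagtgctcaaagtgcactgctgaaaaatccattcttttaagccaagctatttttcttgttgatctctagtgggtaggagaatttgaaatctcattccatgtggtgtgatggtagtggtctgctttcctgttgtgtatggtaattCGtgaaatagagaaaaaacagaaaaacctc
The Slamf1 window held 3 and the Cd48 window 4 CG dinucleotides, against a median of 6 over the 32851 windows of this length in the table. At least as many were found in 71.0% of all windows for Slamf1 and in 62.2% for Cd48. Both promoters were thus on the CG-poor side of that table.

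**Figure D1:**
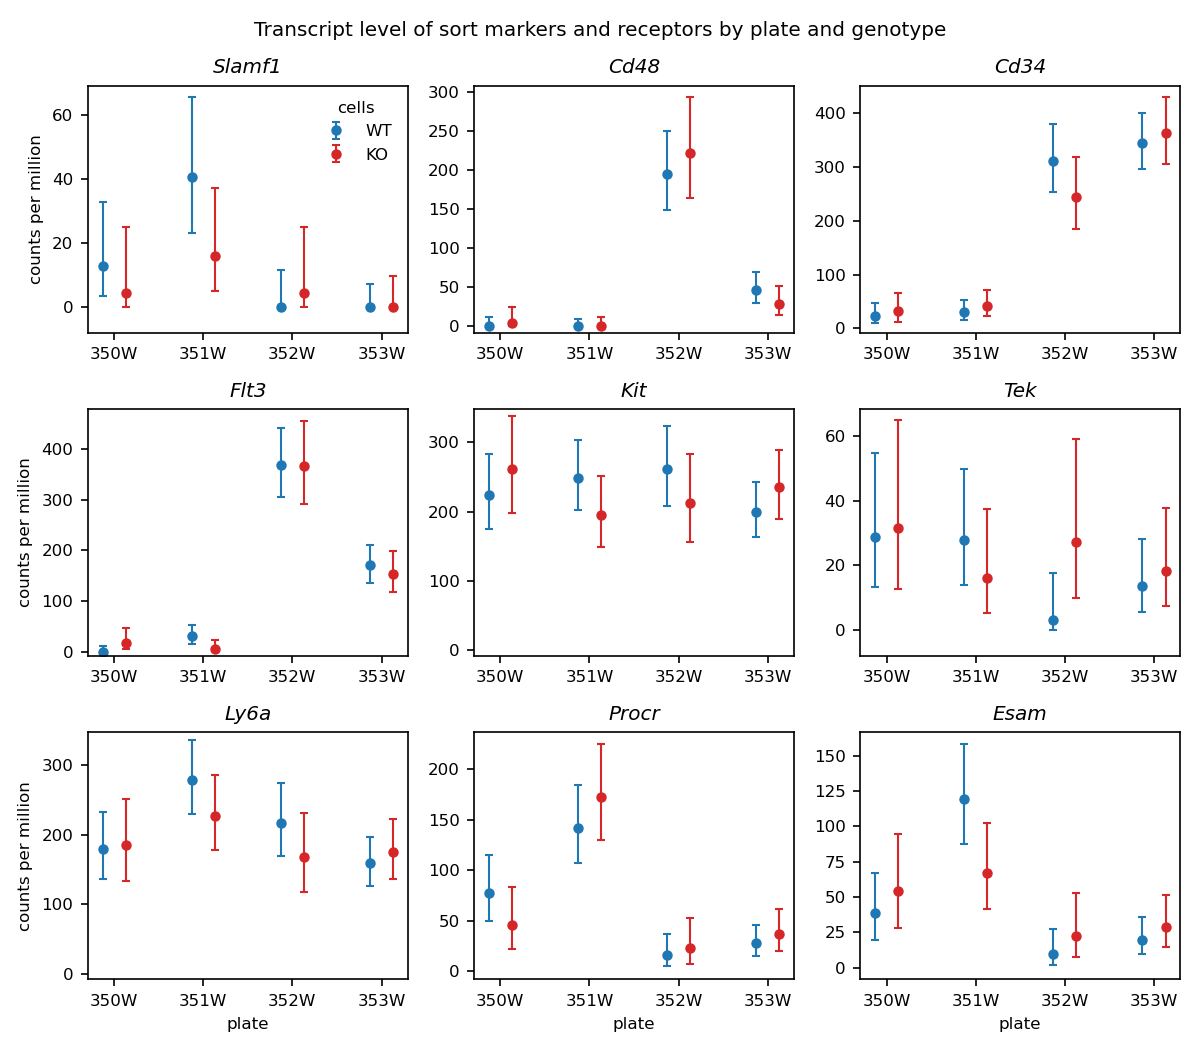
Level of each of the 9 genes in CPM (vertical axis, linear, a separate scale for each gene) in WT cells (blue) and KO cells (red) of the 4 plates (horizontal axis), with exact 95% Poisson intervals of counting error. Cd48, Cd34 and Flt3 are high in both genotypes of 352W and 353W, Procr and Esam are highest in 351W, and Kit lies between 195 and 262 CPM in all 8 pools.

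Among the receptor tyrosine kinases, Kit (ENSMUSG00000005672), the receptor for stem cell factor, was level. Its WT values in 350W, 351W, 352W and 353W were 224, 249, 261 and 200 CPM, with a mean of 234 ± 27.2 (SD, n = 4 plates). The KO values were 262, 195, 213 and 235 CPM, with a mean of 226 ± 28.8 (SD, n = 4). Neither plates nor genotypes separated. A count was found in 43.9%, 47.0%, 46.7% and 59.4% of cells of the 4 plates in that order, and in 30.3%, 20.2%, 29.7% and 23.7% after thinning. Plate 353W, with the highest unthinned share, was also the most deeply counted.

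Flt3 (ENSMUSG00000042817) was low in 350W and 351W and high in 352W and 353W. WT cells had 0, 30.4, 368 and 170 CPM in the 4 plates in order, from 0, 12, 117 and 87 counts. KO cells had 18.0, 6.40, 367 and 154 CPM, from 4, 2, 81 and 59 counts. The pools of 352W lay above those of 353W, and both lay above the other plates without overlap. After thinning, 43.0% of cells of 352W, 16.0% of 353W, 2.81% of 351W and 1.12% of 350W had a count.

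Tek (ENSMUSG00000006386), which encodes the angiopoietin receptor TIE2, had 53 counts in all. It reached 28.9, 27.9, 3.15 and 13.7 CPM in WT cells and 31.6, 16.0, 27.2 and 18.3 CPM in KO cells of 350W, 351W, 352W and 353W. Both pools of 350W lay above those of the other plates and the pools of the other 3 plates overlapped. The gap was within counting error, with 9 WT counts in 350W against 11 in 351W at the closest. In 350W 1 KO well held 5 of the 7 counts of its pool, and 1 WT well held 4 of 9. With both genotypes summed, the level in 350W was 1.32 times that in 351W (exact 95% interval 0.620 to 2.83). A count was found in 4.14% to 7.43% of cells of a plate.

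Of the stem cell markers, Ly6a (ENSMUSG00000075602) was found in every pool. WT cells had 180, 279, 217 and 159 CPM and KO cells 185, 227, 168 and 175 CPM in 350W, 351W, 352W and 353W. Plate 351W was highest in both genotypes. One WT well of 352W, a well with 973 immunoglobulin counts, held 22 of the 69 Ly6a counts of its pool, and without it the pool stood at 151 CPM. Ly6a belongs to a family of near-identical genes, and how reads shared between copies were counted is not given in the labels, so its level is uncertain.

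Procr (ENSMUSG00000027611) was highest in 351W. WT cells had 76.95, 142, 15.7 and 27.4 CPM, from 24, 56, 5 and 14 counts, and KO cells 45.1, 173, 22.6 and 36.6 CPM, from 10, 54, 5 and 14 counts. The order 351W, 350W, 353W, 352W was the same in both genotypes. Esam (ENSMUSG00000001946) followed the same order, with 38.5, 119, 9.44 and 19.6 CPM in WT cells and 54.1, 67.2, 22.6 and 28.8 CPM in KO cells of 350W to 353W. Its pools of 352W and 353W overlapped with each other and with no other plate, while the Procr pools of different plates did not overlap. How many of all genes did likewise was not counted. Procr in 353W was 1.69 times that in 352W, within counting error (exact 95% interval 0.796 to 3.90), and that pair did not pass (edgeR adjusted p = 0.598). In each pool of 352W 1 well held 4 of the 5 Procr counts. In thinned cells of 350W, 351W, 352W and 353W the share with a Procr count was 6.74%, 16.3%, 1.27% and 4.73%, and that with an Esam count 4.49%, 10.1%, 1.27% and 2.96%.

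Cd34 (ENSMUSG00000016494) gave the reverse picture. WT cells had 22.4, 30.4, 312 and 345 CPM, from 7, 12, 99 and 176 counts. KO cells had 31.6, 41.6, 245 and 364 CPM, from 7, 13, 54 and 139 counts. The 4 pools of 352W and 353W lay above the 4 pools of 350W and 351W. A count was found in 76.0% of cells of 353W, 46.2% of 352W, 9.73% of 351W and 4.81% of 350W, and in 41.4%, 29.7%, 5.62% and 1.12% after thinning.

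**Figure D2:**
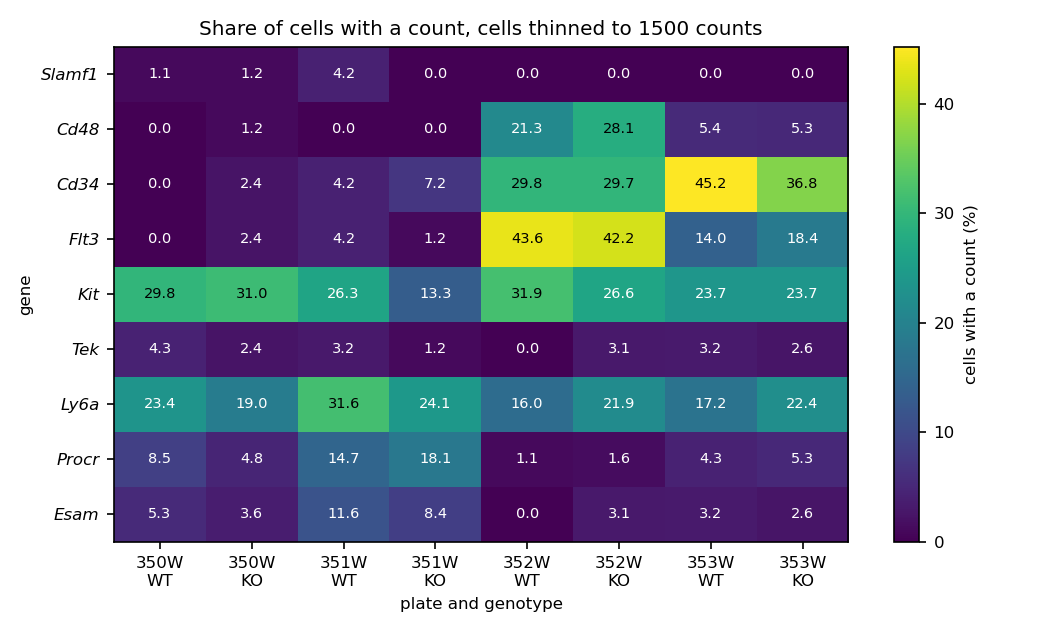
Share of cells with at least 1 count (colour and printed value, in percent) for the 9 genes (rows) in WT and KO cells of the 4 plates (columns), after every cell was thinned to 1500 counts. Cd48, Cd34 and Flt3 are found in 5.3% to 45.2% of cells in the 4 pools of 352W and 353W and in at most 7.2% in the pools of 350W and 351W.

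Promoter windows of the 3 genes with the clearest plate pattern that are in the RefSeq table, other than Cd48, are shown to set the letters beside those levels, again with CG in capitals. Cd34 lies at chr1:194938571-194938820 (plus strand), Flt3 at chr5:147400490-147400739 (minus strand) and Procr at chr2:155750967-155751216 (plus strand), and each line runs in the direction of the gene.
Cd34: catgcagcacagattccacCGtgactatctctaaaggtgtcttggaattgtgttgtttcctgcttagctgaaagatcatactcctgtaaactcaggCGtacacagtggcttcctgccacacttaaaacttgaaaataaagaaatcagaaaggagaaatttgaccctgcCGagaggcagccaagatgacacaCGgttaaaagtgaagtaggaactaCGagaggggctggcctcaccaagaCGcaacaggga
Flt3: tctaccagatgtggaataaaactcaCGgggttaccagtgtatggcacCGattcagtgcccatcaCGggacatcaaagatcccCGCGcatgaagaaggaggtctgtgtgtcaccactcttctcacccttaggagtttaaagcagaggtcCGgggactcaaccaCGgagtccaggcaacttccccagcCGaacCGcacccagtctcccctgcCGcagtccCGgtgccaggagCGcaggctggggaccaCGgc
Procr: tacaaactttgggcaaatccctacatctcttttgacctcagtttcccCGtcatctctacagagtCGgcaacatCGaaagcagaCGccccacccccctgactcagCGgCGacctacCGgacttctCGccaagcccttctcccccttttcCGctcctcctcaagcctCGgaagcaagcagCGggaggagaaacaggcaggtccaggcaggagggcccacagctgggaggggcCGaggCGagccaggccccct
The Cd34 window held 6 CG dinucleotides, and at least as many were in 50.4% of all windows. Flt3 and Procr held 13 each, and 31.5% of windows had at least as many. Flt3 and Procr, which took opposite levels across the plates, thus had equal CG counts, and Flt3 and Cd48, which went together, did not. Short motifs were searched on both strands of the windows of 7 of these genes. The core of a RUNX site, TGTGGT, was found in Cd48 alone, and 14.0% of all windows held it. The ETS core searched for was GAGGAA, found in Kit alone and in 23.3% of all windows. The core of a GATA site, spelled GATAAG, was found in none of the 7 and in 6.55% of all windows. Other spellings of these sites were not searched, and such matches describe the letters only. Esam and Ly6a were named without a window.

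The plates were then compared with each other. The 8 pools were fitted together with edgeR's quasi-likelihood test, with plate and genotype as terms, and p-values were adjusted by the Benjamini-Hochberg method over the 8685 genes with enough counts. The 2 pools of a plate stand in as its replicates and share its library, so these p-values measure the spread between pools of a plate and not between animals. Of all genes tested, 2302 differed among the plates at an adjusted p below 0.05, which is 26.5%. Slamf1 and Tek had too few counts to be tested. The filter asked for 31.7 CPM in at least 2 pools. Cd48 and Flt3 reached that level only in 352W and 353W and Esam only in 350W and 351W, so these 3 had to differ to be tested, and their p-values and the number of calls among the 7 tested genes are descriptions. Cd34 also reached it in 1 pool of 351W and Procr in 1 pool of 353W, and Kit and Ly6a reached it in all 8 pools.

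Cd34 (edgeR adjusted p = 2.78e-10), Flt3 (3.93e-09), Cd48 (9.98e-09), Procr (1.94e-05) and Esam (0.00233) fell below an adjusted p of 0.05 among plates. With no filter on low genes the same 5 were called, with edgeR adjusted p of 1.40e-53 to 4.94e-05. That unfiltered test took in 25820 genes, many with few counts, and its lowest value was far below any of the filtered test. How those genes changed its estimate of spread was not examined, so its p-values are descriptions too. In the filtered test Ly6a (0.0879) and Kit (0.504) did not pass. The calls of Procr and Esam rested on 351W, and without that plate their edgeR adjusted p was 0.103 and 0.279. DESeq2 gave 0.0519 for Esam. In the unfiltered test, where 10.9% of 25820 genes were called, Slamf1, with 27 counts in all, passed (edgeR adjusted p = 4.74e-04) and Tek did not (0.979).

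Pairs of plates showed where the differences lay. Between 352W and 351W, where 15.8% of genes were called, Cd34 had a log2 difference of 3.16, higher in 352W (SE 0.29, edgeR adjusted p = 3.02e-08), and Flt3 by 4.38 (SE 0.40, 3.06e-08). In the same pair Procr fell by 2.86 (SE 0.44, edgeR adjusted p = 5.65e-05) and Esam fell by 2.45 (SE 0.55, 0.00325) from 351W to 352W. Cd48 was at least 48.6-fold higher in 352W and at least 9.23-fold higher in 353W than in 351W, against the floor of 3 counts. Cd34, Flt3 and Cd48 thus stood opposite to Procr and Esam in this pair, while Ly6a (log2 difference -0.20, SE 0.22, edgeR adjusted p = 0.610) and Kit did not pass.

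Between 353W and 351W, where 12.8% of genes were called, Cd34 was higher in 353W by 3.27 (SE 0.27) and Flt3 by 2.99 (SE 0.43). Procr fell by 2.33 (SE 0.36), Esam fell by 2.01 (SE 0.46) and Ly6a fell by 0.65 (SE 0.20) from 351W to 353W, with edgeR adjusted p of 6.46e-05, 0.00380 and 0.0396. The Ly6a call was lost with library totals (edgeR adjusted p = 0.0552), among cells of at least 1000 counts (0.0725), without 350W (0.0543), with no filter on low genes (0.122) and after thinning (0.507). DESeq2 did not call Ly6a, Esam or Flt3 in this pair, with adjusted p of 0.62, 0.0955 and 0.181.

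Plate 350W, with little Cd34, Flt3 and Cd48 as in 351W, differed from it in Procr, which was higher in 351W by 1.27 (SE 0.35, edgeR adjusted p = 0.0239, in a pair where 8.95% of genes were called). That p was 0.0609 after thinning and 0.305 by DESeq2. Between 352W and 350W, where 11% of genes were called, Cd34 was higher in 352W by 3.55 (SE 0.33) and Flt3 by 5.69 (SE 0.51), and Cd48 was 110 times as high by summed counts (exact 95% interval 19.3 to 4383, from 1 count in 350W). Between 353W and 350W, where 12.4% of genes were called, Cd34 was higher in 353W by 3.66 (SE 0.31), Flt3 by 4.30 (SE 0.58), and Cd48 was 20.9 times as high (3.51 to 849). DESeq2 gave an adjusted p of 0.0892 for Cd48 between 353W and 350W. Procr in 352W and 353W did not pass against 350W, with edgeR adjusted p of 0.0516 and 0.111.

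Plates 352W and 353W differed from each other in Cd48. From 352W to 353W, in a pair where 12.3% of genes were called, Cd48 fell by 2.63 (SE 0.38, edgeR adjusted p = 3.66e-05) and Flt3 fell by 1.39 (SE 0.28, 0.00122), while Cd34 had a log2 difference of 0.11 (SE 0.20, 0.778). The Flt3 difference was not called by DESeq2 (adjusted p = 0.754). Kit passed in none of the 6 pairs, with log2 differences of -0.36 to 0.28. Library totals in place of TMM scaling moved the median of all genes by 0.21 between 353W and 352W and by -0.19 between 352W and 351W on the log2 scale, and the direction of every called pair of these genes stayed.

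Single cells were then sorted by which transcripts they held. The 2 sets were chosen after the values were seen, Slamf1, Procr, Esam and Tek on one side and Cd48, Flt3 and Cd34 on the other, and cells were thinned to 1500 counts. Only the first set was found in 14.6% of cells of 350W, 26.97% of 351W, 0.633% of 352W and 2.96% of 353W. Only the second set was found in 2.25%, 7.30%, 66.5% and 44.4% of cells in that order. Both sets were found in at most 7.69% of these thinned cells of any plate, and 29.7% to 82.6% of cells held no count of the 7 genes. Only the second set was found in 65.96% of WT and 67.2% of KO cells of 352W, and in 45.2% and 43.4% of those of 353W. Without thinning, both sets were found in 23.4% of 175 kept cells of 353W and in 1.60% to 7.69% of those of the other plates. In 353W 44 kept cells held a count of the first set, and 41 of them also held 1 of the second. The sets thus do not mark separate cells there, and a low share with both depends on depth.

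**Figure D3:**
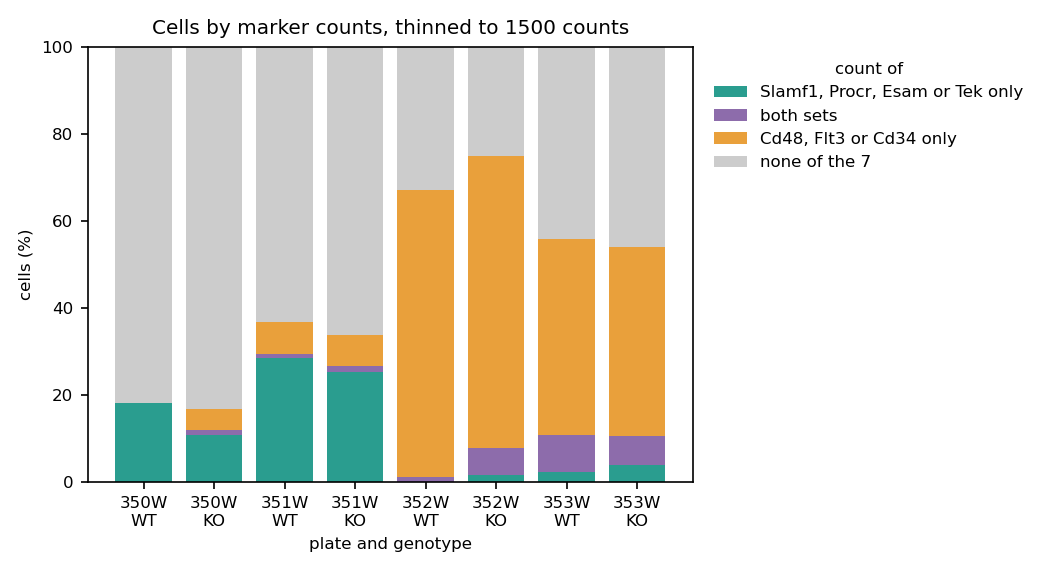
Share of thinned cells (vertical axis, percent) with a count of Slamf1, Procr, Esam or Tek only (green), of Cd48, Flt3 or Cd34 only (orange), of both sets (purple) or of none of the 7 genes (grey), in WT and KO cells of the 4 plates. Orange fills 43.4% to 67.2% of the 4 pools of 352W and 353W and at most 7.37% of the others.

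Pairs of these transcripts were then looked for in the same cells. For each of the 36 pairs of genes, the cells with both were compared with the product of their shares in each plate, summed over plates. The exact Poisson interval of the ratio included 1 for all 36 pairs, in thinned cells and in all kept cells. It ignores that the number of cells with each gene is fixed in a plate, so it is too wide where both genes are common. Where few cells are expected, as for Slamf1 and Cd48 (0.0112 thinned cells), it cannot show fewer. Whether a pair met more or less often than its shares gave was thus not decided by these intervals. Flt3 and Cd34 were found together in 116 kept cells against 103 expected, a ratio of 1.13 (95% interval 0.932 to 1.35), and in 36 thinned cells against 31.7 (1.14, 0.795 to 1.57). Cd48 and Flt3 met in 56 cells against 48.3 expected (1.16, 0.876 to 1.51), Procr and Esam in 15 against 14.3 (1.05, 0.587 to 1.73), and Flt3 and Procr in 13 against 11.5 (1.13, 0.601 to 1.93). In thinned cells these 3 ratios were 0.843 (0.472 to 1.39), 0.803 (0.166 to 2.35) and 0.971 (0.200 to 2.84). Of the 36 pairs, 25 were above the expected number in kept cells, 18 in thinned cells and 12 with cells thinned to 1000 counts. Kept cells differ in depth, and the part of depth in their ratios was not tested. In a single plate, Ly6a and Esam met in 5 thinned cells of 350W against 1.71 expected (2.93, 0.951 to 6.83), and with cells thinned to 1000 counts in 4 against 0.989 (4.04, 1.10 to 10.4). That pair was picked from 36 pairs in each of 4 plates, under several thinnings, with no adjustment. It rests on few cells and does not show that the 2 genes go together.

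**Figure D4:**
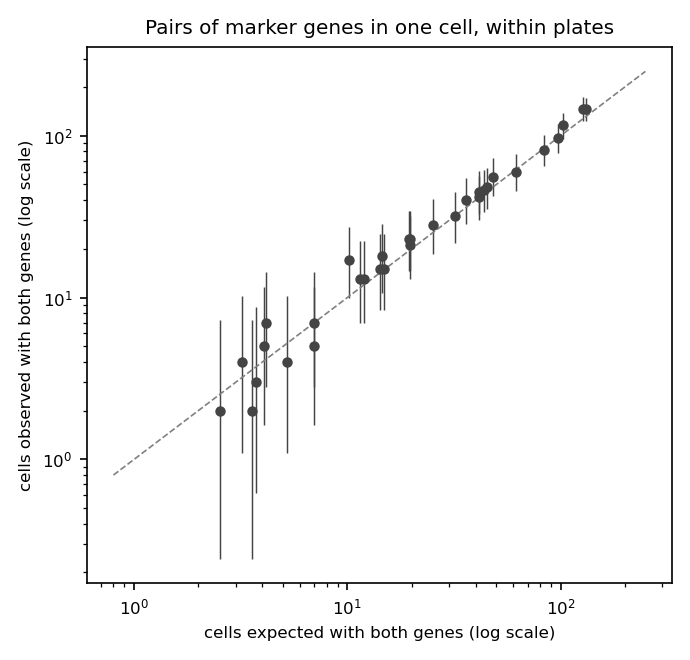
Number of kept cells with counts of both genes of a pair (vertical axis, log scale) against the number expected from their shares within plates (horizontal axis, log scale), for the 32 of 36 pairs with at least 2 expected cells. Bars are exact 95% Poisson intervals and the dashed line marks equality, which every bar crosses.

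The second comparison set KO against WT cells with the plate as a block. Of 8685 genes tested, 12 were called by edgeR at an adjusted p below 0.05, which is 0.138%, and 0 of the 7 tested genes described here were among them. None of them reached an unadjusted p below 0.05 either, against 5.86% of all genes, and DESeq2 likewise gave 0 at both thresholds, with 89 of all genes at an unadjusted p below 0.05. The lowest edgeR adjusted p was 0.970, for Ly6a.

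The intervals limit how large a genotype difference these pools could hide. Kit had a log2 fold change of -0.02 (SE 0.15), a KO to WT ratio of 0.986 with a 95% interval of 0.804 to 1.21, and was higher in KO cells in 2 of 4 plates. Cd34 had 0.0055 (SE 0.18), a ratio of 1.004 (0.786 to 1.28), and was higher in KO cells in 3 of 4 plates. Ly6a had -0.10 (SE 0.16), a ratio of 0.930 (0.753 to 1.15). A difference beyond these limits would lie outside the 95% interval of the fit.

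For the less abundant genes the intervals were wider. Flt3 had a ratio of 0.934 (95% interval 0.655 to 1.33), Cd48 of 0.965 (0.589 to 1.58), Procr of 1.08 (0.731 to 1.59) and Esam of 1.04 (0.638 to 1.70). The Esam value rested on 351W, and without that plate its log2 fold change was 0.68 (edgeR adjusted p = 0.979). Their KO minus WT log2 fold changes were -0.10, -0.05, 0.11 and 0.06, and such values near 0 changed sign under several alternatives. Slamf1 and Tek, fitted only with no filter on low genes, had log2 fold changes of -0.96 (SE 0.83) and 0.34 (SE 0.49), each with an edgeR adjusted p of 0.992, where 0.101% of 25820 genes were called.

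Within single plates, 3 of the ratios of KO to WT counts had an exact 95% interval that left out 1. In 351W Flt3 had 2 counts in KO and 12 in WT cells, a ratio of 0.210 (0.0228 to 0.944), and Esam had 21 and 47, a ratio of 0.563 (0.320 to 0.961). In 352W Tek had 6 counts in KO and 1 in WT cells, a ratio of 8.63 (1.05 to 397). The intervals cover counting error only and were not adjusted for the 9 genes and 4 plates looked at. Esam was higher in KO cells in the other 3 plates. Flt3 was higher in KO cells in 350W, while its ratio was 0.996 in 352W and 0.906 in 353W. Tek had a ratio of 1.09 in 350W, 0.573 in 351W and 1.34 in 353W.

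**Figure D5:**
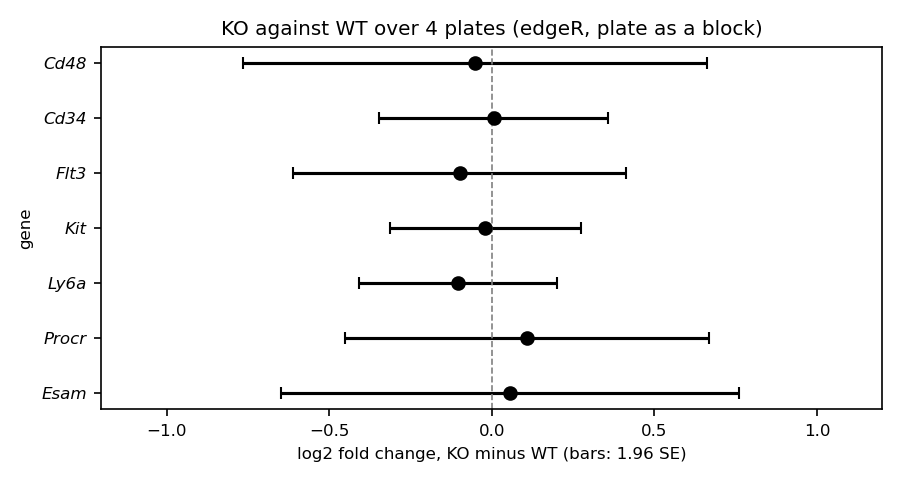
Log2 fold change of KO against WT cells (horizontal axis) for the 7 tested genes (rows) from edgeR with the plate as a block over 4 plates; bars are 95% intervals from the standard error. Every bar crosses 0, and the narrowest are those of Kit, Ly6a and Cd34.

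Genes whose level followed these markers over the 8 pools were found by Pearson correlation of log2(CPM + 10), a description without a test in which pools of a plate share a library. For Cd34 the closest was Mpo, a granule enzyme of myeloid progenitors (r = 0.99), with no count in the 4 pools of 350W and 351W and at 158 to 205 CPM in the others. For Flt3 they were Fubp1 (0.97), H2afj and Cd52 (0.96 each), of which Cd52, a lymphocyte surface antigen, reached 254 to 274 CPM in 352W and at most 20.3 CPM in 350W and 351W. For Cd48 they were Cox6a1, Cnpy2 and Jchain (0.98 each). Jchain, the joining chain of secreted antibody, stood at 1137 to 1675 CPM in 352W.

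Procr and Esam shared Gstm1, a glutathione transferase, as their closest gene (r = 0.98 and 0.95), at 170 to 208 CPM in 351W and 47.2 to 58.9 CPM in 352W. Esam also went with Selenop, the secreted selenium carrier (0.95), at 617 to 647 CPM in 351W against 56.7 to 99.6 CPM in 352W and 353W. Among the markers themselves, r was 0.94 for Cd48 and Flt3, 0.92 for Flt3 and Cd34, 0.90 for Procr and Esam, and 0.88 for Slamf1 and Esam.

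The other genes of the markers' pathways were read from lists chosen with earlier results of these data known. Of 38 tested genes in 6 lists, edgeR called 0 between KO and WT cells, and 1 had an unadjusted p below 0.05. The counts of plate calls stand against 26.5% of all genes. Some list genes reached the 31.7 CPM of the filter only in plates where they were high, so they had to differ to be tested. Among these were Tie1 (351W only), Jam3 (350W and 351W), Emcn (351W and 352W) and Ly6d (352W only). Their p-values and the counts of plate calls in these lists are thus descriptions. Of 21 genes of receptor kinase signalling 17 were tested, with a median KO minus WT log2 fold change of -0.02 (0.0017 over all genes), and 4 differed among plates. Stat5a, a transducer of cytokine receptors, was at 33.7, 53.8, 18.6 and 193 CPM in 350W to 353W (edgeR adjusted p = 1.74e-06). Ptpn6, a phosphatase that damps Kit signals, was at 91.8, 99.0, 22.3 and 137 CPM (0.00190). Angpt1, the ligand of TIE2, was at 216, 173, 258 and 153 CPM (0.00549), and Tie1, the partner receptor of TIE2, at 13.1, 49.5, 5.57 and 1.12 CPM (0.00925). Grb2, an adaptor, and Pik3r1, a kinase subunit, were abundant and did not pass (0.687 and 0.701).

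Of 8 genes for binding partners and relatives of CD34 and ESAM, 4 were tested and 3 differed among plates. F11r, a junction adhesion molecule, was at 232, 75.0, 11.1 and 43.7 CPM in 350W to 353W (edgeR adjusted p = 4.45e-07), and Jam3, another, at 41.2, 49.5, 14.9 and 14.6 CPM (0.0409). Magi1, a scaffold that binds ESAM, was at 191, 154, 167 and 204 CPM and did not pass (0.510).

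Of 26 other surface genes of stem and progenitor cells 14 were tested and 7 differed among plates. Emcn, an endothelial mucin of stem cells, was at 13.1, 153, 48.3 and 19.0 CPM in 350W to 353W (edgeR adjusted p = 1.88e-06), with its peak in 351W as for Procr, and Eng, a co-receptor of TGF-beta, at 176, 194, 57.6 and 69.4 CPM (1.02e-04). Cd27 was at 107, 119, 160 and 263 CPM (0.00138), Cd47 at 114, 137, 204 and 249 CPM (0.00169), Spn, which encodes CD43, at 71.2, 139, 230 and 135 CPM (3.99e-04) and Cd81 at 88.1, 211, 48.3 and 115 CPM (2.38e-04). These levels did not all follow 1 order of plates.

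In the Ly6 family of 8 genes, 2 were tested and both differed among plates. Ly6e was at 427, 791, 501 and 600 CPM in 350W to 353W (edgeR adjusted p = 0.00132), highest in 351W like Ly6a, and Ly6d, a marker of lymphoid progenitors, at 0, 0, 76.1 and 13.4 CPM (1.90e-04). Of 11 SLAM family genes and adaptors 1 was tested, the kinase Fyn, which did not pass (0.583), and of 7 genes of the protein C pathway none had enough counts.

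Markers of other cells moved with the plates too. The summed level of 8 B and plasma cell genes was 43.1, 90.6, 11820 and 2423 CPM in 350W to 353W, in 352W and 353W mostly Ighm and Igkc, and in 351W mostly Cd79b at 73.6 CPM, with no count of Ighm or Igkc there. The summed level of the pools ranged from 54.5 to 13387 CPM in WT and 27.1 to 9564 CPM in KO cells. Ighm and Igkc were called lower in KO cells, with log2 fold changes of -1.08 for Ighm (edgeR adjusted p = 0.00354) and -0.94 for Igkc (0.0484). Without the 8 wells of over 100 immunoglobulin counts, Cd48 in 352W was at 214 CPM and in 38.9% of cells, Flt3 at 369 CPM, Cd34 at 281 CPM and Ly6a at 153 CPM. The plate pattern of Cd48, Flt3 and Cd34 was thus as large without those wells, but immunoglobulin counts in the remaining wells were not removed, and their part in it was not tested.

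The sum of 11 neutrophil genes was 236, 211, 548 and 562 CPM in 350W to 353W. Prtn3 was the most abundant, at 217, 188, 258 and 272 CPM, and did not pass among plates (edgeR adjusted p = 0.0713). Mpo and Ctsg were at 0 in 350W and 351W, and S100a8 was not found in any table. The summed level of the WT pools ranged from 216 to 604 and of the KO pools from 198 to 570 CPM. Monocyte and dendritic genes summed to 898, 662, 384 and 615 CPM, megakaryocyte genes to 678, 153, 55.7 and 109 CPM, T and natural killer cell genes to 39.4, 60.8, 87.3 and 97.4 CPM, and mast cell and basophil genes to 48.7, 38.2, 124 and 48.1 CPM. Erythroid genes summed to 73.1, 120, 94.7 and 127 CPM, and endothelial and stromal genes to 91.8, 72.2, 52.0 and 69.4 CPM. Of the latter, Stab2 was the most abundant, at 35.6, 24.1, 20.4 and 29.1 CPM, and Cdh5 was at 2.24 to 7.43 CPM. Esam and Tek are also endothelial genes. The part of these lists in the plate differences was not tested.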

How the data were processed

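For each MARS-Seq plate the authors deposited 1 table of raw counts, whole numbers per cell for the genes with a count in that plate. GRCm38.p4 and FastQC are named, per the submitters' processing notes, and no aligner or counting rule is named there or in the labels. Genotype was read from the prefix of the cell names in the tables. A gene absent from a table was taken as 0 there, which applies to Cd48 in 351W and Slamf1 in 353W. Identifiers were paired with symbols for 25714 of 25832.

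Cells with at least 500 counts were summed per plate and genotype, without doublet calling. The sums were tested with edgeR 4.0.16 in R 4.3.3 (filterByExpr on the design, TMM, quasi-likelihood, Benjamini-Hochberg adjustment over all genes tested, threshold 0.05), with plate and genotype as terms, since both genotypes of a plate share the plate. Intervals at 95% of levels, shares and count ratios are exact (Poisson or Clopper-Pearson, scipy 1.17.1), and those of fitted KO to WT ratios come from edgeR's standard error. The labels do not tie plates to animals, and the p-values then reflect the spread between pools alone, which may be technical. The scripts were tested on simulated data.

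The genes named were the 9 markers and, of each pathway list, those called and the 3 most abundant. A few list genes that this rule names are not reported here. For each marker with at least 100 counts, up to 3 genes of highest likeness among genes with at least 200 counts were taken. Markers and lists were chosen with earlier results of these data known. Alternatives were DESeq2 1.42.0, library totals, other filters, thinning, no block and leaving out each plate; a filter with genotype as the group was chosen after seeing the data. The ChIP-seq region lists were not used here because they are on mm9, and no annotation of that build was used. The bulk RNA-seq and ATAC-seq samples were not analysed here.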

Additional observations from a re-analysis of the deposited data

Results flagged for a closer look

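Of 27 checks for a pool far from the other 3 plates, made on WT, KO and summed cells of each of the 9 genes, 2 passed Dixon's 95% limit for 4 values, and chance alone gives about 1 in 20. Cd48 in KO cells stood at 222 CPM in 352W, far above the other 3 plates (gap over range 0.870). Procr in KO cells stood at 173 CPM in 351W, far above the other 3 plates (0.850).

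The 52 wells under 500 counts, which entered only the alternative with no filter on cells, held transcripts of these genes beyond the limit of 3 counts set by a count of 0. In their 16463 counts, Kit had 4 counts, Flt3 had 8 counts and Cd34 had 12 counts. Their levels were 243, 486 and 729 CPM, against 228, 135 and 190 CPM in kept cells, and the exact 95% intervals for Flt3 and Cd34 were 210 to 957 and 377 to 1273 CPM. All 8 Flt3 counts and 8 of the Cd34 counts came from 352W, which held 23 of these wells. Within 352W the left-out wells stood at 1032 CPM in each gene (446 to 2034), against 368 CPM of Flt3 and 284 CPM of Cd34 in kept cells.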

How the results depend on the processing

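Under every alternative run, 0 of the markers were called between KO and WT cells, also with no replicate block, where edgeR called 0 of all 8685 genes and 120 had an unadjusted p below 0.05. The markers differing among plates numbered 5 of 7 tested, where 26.5% of all genes were called, and 6 of 9 with no gene filter, where 10.9% were. They numbered 3 to 5 when a plate was left out (3 without 351W), 4 after thinning and with the filter by genotype (6 genes tested each) and 4 with DESeq2. The count of the main fit is a description, since Cd48, Flt3 and Esam passed its filter only through plates where they were high. The count with no gene filter is a description too, since that fit took in many genes with few counts. Of 191 checks of a called pair of plates none changed direction and 12 lost the call; of 108 checks of a level 107 stayed within the interval. All genes called between KO and WT numbered 12, with 26 with no gene filter, 8 after thinning, 6 with the filter by genotype, 2 without wells of over 100 immunoglobulin counts, 1 with DESeq2 and 6 to 14 on leaving out a plate (6 without 353W). All genes differing among plates numbered 2302, with 1366 after thinning, where 4283 were tested, and 999 with DESeq2; the cause was not tested.

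The uncalled log2 fold changes between KO and WT cells, all near 0, changed sign in 25 of 88 checks. With library totals Cd34 was at -0.0104, with cells of at least 1000 counts at -0.0100, and with the filter by genotype at -0.0104. After thinning Cd48, Flt3, Procr and Cd34 were at 0.18, 0.0749, -0.0422 and -0.11. Without wells of over 100 immunoglobulin counts Ly6a, Esam and Cd34 were at 0.0081, -0.0040 and -0.0419. With no replicate block Cd48, Esam and Cd34 were at 0.0676, -0.0894 and -0.0534, and with DESeq2 Flt3 was at 0.0827. Without a plate the ranges were -0.11 to 0.27 for Cd48, -0.13 to 0.0897 for Kit, -0.22 to 0.0299 for Flt3, -0.0336 to 0.36 for Procr, -0.11 to 0.68 for Esam and -0.0426 to 0.18 for Cd34. Counts of Slamf1 and Tek were too low for any genotype statement, and shares of cells with a count depend on depth.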

Other observations

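Marker genes of other cells also separated plates in both genotypes, and the genes given here were picked with their levels known. H2-Aa, a class II histocompatibility gene, stood at 330 and 298 CPM in WT and KO cells of 350W, 249 and 224 CPM in 351W, 31.5 and 9.06 CPM in 352W, and 84.2 and 28.8 CPM in 353W (edgeR adjusted p among plates 5.84e-08). It was thus high where Cd34 and Flt3 were low. KO cells had the lower value in each of the 4 plates, with a log2 fold change of -0.43 (SE 0.22) that was not called (edgeR adjusted p = 0.849). Its partner H2-Ab1 had the same direction with a smaller difference. The pools of H2-Ab1 held 54.1 to 83.4 CPM in 350W and 351W and 34.0 to 49.8 CPM in 352W and 353W. By plate H2-Ab1 was at 71.2, 75.0, 48.3 and 42.5 CPM in 350W to 353W and did not pass among plates (edgeR adjusted p = 0.241). Cd74, another partner, was at 347, 224, 165 and 289 CPM (0.00836) and did not follow that split of plates.

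Nkg7, a granule gene of cytotoxic lymphocytes, went the other way, with 19.2 and 0 CPM in WT and KO cells of 350W, 12.7 and 28.8 CPM in 351W, 59.8 and 54.3 CPM in 352W, and 72.4 and 70.6 CPM in 353W (edgeR adjusted p among plates 0.00521). It reached the 31.7 CPM of the filter only in 352W and 353W, so that p is a description. Klrb1c, of the same list, was at 16.9, 31.1, 20.4 and 13.4 CPM in 350W to 353W and did not pass (0.744). Vwf, the gene of von Willebrand factor, separated the pair of plates that were alike in Cd34, Flt3 and Cd48, and was lower in 351W than in 350W with a log2 difference of -3.48 (SE 0.28, edgeR adjusted p = 7.38e-09).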
